A study of Mus musculus with 4 samples.

Results

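Edn1, Ednra, Ednrb, Adm and Ace encode peptides that set the tone of blood vessels, receptors of those peptides and an enzyme that makes and degrades such peptides. They were followed in whole mouse lungs after inhalation of hexamethylene diisocyanate (HDI), a reactive chemical of polyurethane paints that irritates the airways. Members were the probe sets whose platform annotation names 1 of these 5 genes. This gave 7 of the 10833 probe sets with a single gene symbol: 2 for Edn1, 1 for Ednrb, 1 for Adm and 3 for Ace. No probe set carried the name Ednra in the annotation used, so Ednra was not analysed here and 4 of the 5 genes were measured. They stood among 8251 genes with a named probe set. All lungs came from C57BL/6J mice, an inbred laboratory strain, and were combined into 4 pools, each read on 1 Affymetrix array. The pools were unexposed lungs, titled with 0 h, and lungs collected 6, 18 and 90 h after an aerosol of 10 mg HDI per cubic metre. How many mice made up a pool, their age and how long they breathed the aerosol were not stated in the labels.

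Endothelin-1, the product of Edn1, is made mainly by endothelium and also by airway epithelium, and is among the strongest known constrictors of vessels and airways. It acts on the receptor encoded by Ednra, which contracts smooth muscle, and on that encoded by Ednrb, which on endothelium triggers release of dilators and clears endothelin from the blood, much of it in the lung. Adrenomedullin, the product of Adm, is a dilator peptide that tightens the endothelial barrier and is known to be induced by hypoxia and inflammatory signals. Ace encodes angiotensin-converting enzyme, which sits on the endothelium of lung capillaries, forms angiotensin II and degrades bradykinin.

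The start regions of Edn1 and Adm are shown because their probe sets were the ones furthest above the unexposed pool. Both are from RefSeq on build GRCm38.p6, on the plus strand, from 250 bases before the annotated start to 30 bases from it. They lie at chr13:42301226-42301505 for Edn1 and chr7:110627407-110627686 for Adm. Capitals mark matches, on either strand, to any of 6 motifs. Those with a match were the core of a hypoxia response element, spelled NCGTG, the site of GATA factors, spelled GATAA, and the core of an antioxidant response element, spelled TGACNNNGC. Positions are counted from the annotated start, with negative numbers before it.
Edn1: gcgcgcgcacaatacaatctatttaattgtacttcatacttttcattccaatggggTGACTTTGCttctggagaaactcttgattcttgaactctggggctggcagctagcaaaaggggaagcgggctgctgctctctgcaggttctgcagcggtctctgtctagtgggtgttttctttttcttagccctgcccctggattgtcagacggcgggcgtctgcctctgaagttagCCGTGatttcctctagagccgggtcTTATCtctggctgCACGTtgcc
Adm: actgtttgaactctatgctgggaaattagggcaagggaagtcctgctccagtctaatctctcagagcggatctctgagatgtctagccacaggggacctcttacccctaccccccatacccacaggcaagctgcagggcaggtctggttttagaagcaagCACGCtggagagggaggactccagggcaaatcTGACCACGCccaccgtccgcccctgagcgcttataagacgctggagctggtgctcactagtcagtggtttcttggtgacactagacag

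The Edn1 window held TGACTTTGC at -194, CCGTG at -17, TTATC at 9 and CACGT at 22. The Adm window held CACGC at -90 and TGACCACGC at -58, and a further CACGC at -54 lies inside the latter match. Neither window held the AP-1 motif TGANTCA, which 7.46% of all windows of this length in the table held. Neither held the exact TATA box letters TATAAA, found in 13.1% of windows, or the glucocorticoid receptor motif AGAACA, found in 17.8%. The Adm window does hold the near match TATAAG, which the search for exact letters did not count. Of the same 32851 windows, 59.3% held the loose hypoxia core NCGTG and 24.4% the GATA site. The antioxidant core was held by 11.5% of them. The match of Edn1 at 22 is also the stricter hypoxia core ACGTG, held by 18.5%. Among the other members, NCGTG also had a match in the windows of Ednra, at -222, and Ednrb, at -99. It had another in 1 of the 2 annotated start windows of Ace, at -6. On the matched strand the first letter was C in Ednra and in Edn1 at -17, and T in Ace. These matches are therefore not the usual core with A or G. The GATAA and TGACNNNGC motifs had none in the windows of these other members. TATAAA had a match in that same Ace window, at -31, and AGAACA in the Ednrb window, at -115. A match describes letters in the window and is not a measured binding site.

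The values below are array intensities, each array multiplied by a factor between 0.970 and 1.07 that equalises the trimmed means of the 4 arrays. Values under 77.7 units, the 40th percentile, were treated as a floor, since dim probe sets are close to background. Where 1 array of a comparison lay at the floor, only a limit on the fold is known, and it is given as at least that fold. Each gene was read by its brightest probe set unless stated. Lung identity was clear in the unexposed pool: Sftpc and Scgb1a1, the surfactant protein C and club cell secretory protein genes, read 9871 and 10632 units, and the endothelial genes Pecam1 and Cdh5 938 and 1425 units. No pool had a replicate array, so no p-value can be given and every fold describes these arrays. The number of arrays limits the precision. As a yardstick of measurement error alone, log2 differences from 2 probe sets of the same gene disagreed with a robust SD of 0.27, 0.28 and 0.24 per probe set at 6, 18 and 90 h against unexposed. All comparisons with unexposed lungs share the unexposed array.

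Both ligand genes stood highest at 6 h, and they were the members at least 2-fold from the unexposed pool. At 6 h 2 of the 4 measured genes, Edn1 and Adm, were at least 2-fold higher, while 2.17% of all 6044 compared genes were. No member was 2-fold lower at that time, against 1.51% of genes. At 18 h and at 90 h 0 of 4 were past 2-fold in either direction, where 1.59% and 0.726% of genes were higher and 0.944% and 0.924% lower. Counted by probe sets, 3 of 7 were at least 2-fold higher at 6 h, against 2.31% of all probe sets. The members and gene lists were chosen with earlier results of these data known. The shares here and below therefore describe these genes and test nothing.

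**Figure D1:**
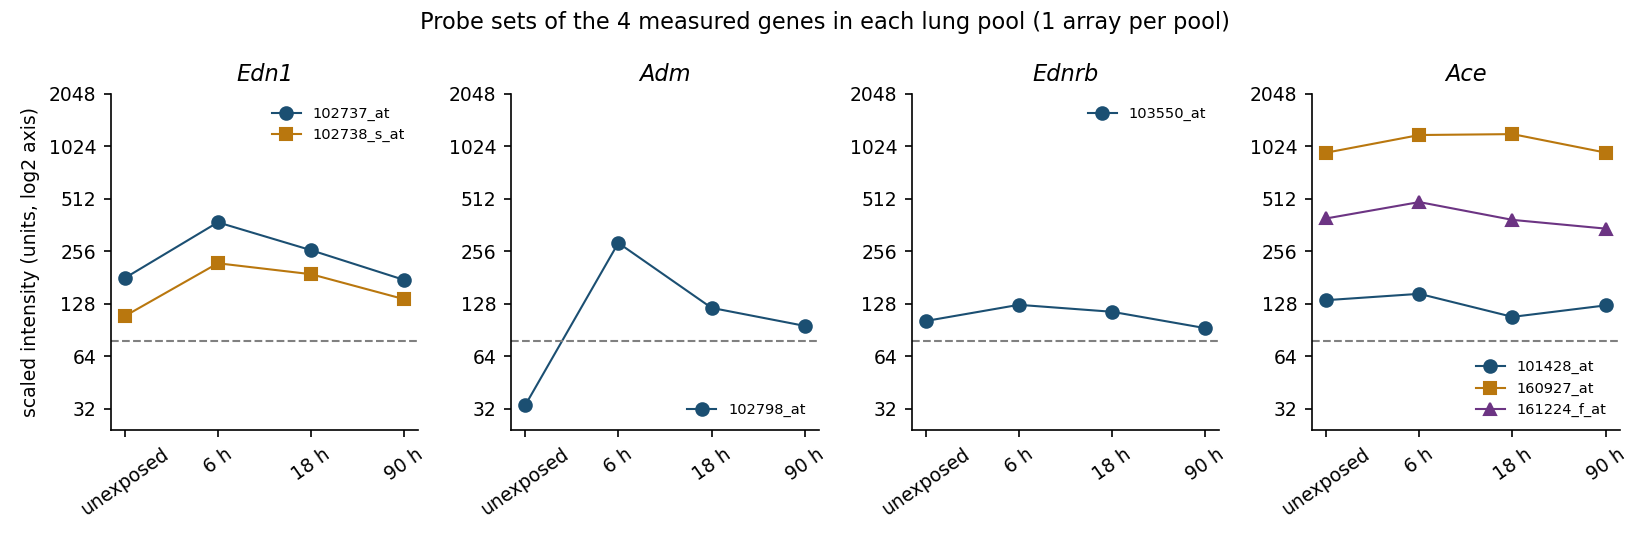
Scaled intensity (log2 axis) of the 7 probe sets in the 4 lung pools, 1 point per array, with 1 panel per gene; the dashed line is the floor of 77.7 units. Edn1 and Adm peak at 6 h, Adm starting from 33.4 units below the floor, while the Ednrb probe set stays between 92.5 and 126 units and the brightest Ace probe set between 937 and 1198.

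Edn1, the constrictor ligand, read 179, 374, 259 and 175 units in the unexposed, 6, 18 and 90 h pools by its brightest probe set, 102737_at. The 6 h pool was 2.09-fold above the unexposed pool (log2 difference 1.06), the 18 h pool 1.45-fold above it (0.53), and the 90 h pool differed by -0.03. The pools therefore ranked 6 h, 18 h, unexposed and 90 h, and the last of these neighbours lay closer together than the disagreement between probe sets. The second probe set of Edn1, 102738_s_at, which by its suffix may cross-hybridise, read 108, 218, 189 and 136 units. It was 2.01-fold above unexposed at 6 h, 1.74-fold at 18 h and 1.25-fold at 90 h. Both probe sets thus placed the maximum at 6 h and 18 h between 6 h and 90 h, and they differed on whether 90 h was back at the unexposed level. The 6 h value lay close to the 2-fold threshold. With a pseudocount of 32 in place of the floor, which shortens the differences of dim probe sets, it was 0.94 on the log2 scale.

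Adm, the dilator ligand, read 33.4, 285, 121 and 95.3 units in the same order by its single probe set, 102798_at. The unexposed pool was the only one under the floor. At 6 h Adm was at least 3.67-fold above the unexposed pool, at 18 h at least 1.56-fold and at 90 h at least 1.23-fold. These bounds move with the floor: at the 25th percentile they were 2.64, 1.40 and 1.06 on the log2 scale, and at the 60th percentile the 6 h bound was 1.05. Between exposed pools both values were measured, and Adm was 2.36-fold lower at 18 h than at 6 h and 1.27-fold lower at 90 h than at 18 h.

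Ednrb, the receptor that also clears endothelin, differed little between pools. Its probe set read 102, 126, 115 and 92.5 units in the unexposed, 6, 18 and 90 h pools, all above the floor but close to it. The log2 differences from unexposed were 0.31, 0.18 and -0.14. The 6 h value slightly exceeded the probe set disagreement of 0.27, and the values at 18 and 90 h were within it. With unscaled intensities the 90 h difference was 0.01, and a floor at the 60th percentile put Ednrb at the floor in all pools.

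Ace was read by 3 probe sets, which disagreed in sign at 18 h. The brightest, 160927_at, read 937, 1184, 1198 and 938 units, with log2 differences of 0.34, 0.35 and 0.00 at 6, 18 and 90 h. The probe set 161224_f_at, whose suffix marks a family of similar sequences, read 393, 489, 386 and 344 units, with differences of 0.31, -0.03 and -0.19. The dimmest, 101428_at, read 134, 146, 107 and 125 units, with differences of 0.12, -0.32 and -0.10. All 3 were thus above unexposed at 6 h by 1.09-fold to 1.26-fold, while at 18 h 1 was higher and 2 were lower. Averaged over its probe sets, Ace had log2 differences of 0.26, 0.00 and -0.10. RefSeq lists 2 starts for Ace, at chr11:105967698-105967977 and chr11:105974939-105975218 in the windows searched, and which transcript each probe set reads was not tested.

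The order 6 h above 18 h above 90 h was shared by Edn1, Adm and Ednrb and by 5 of the 7 member probe sets. Of 5219 genes above the floor in all 3 exposed pools, 19.6% had this order. From 6 h to 18 h, 1 of 4 members, Adm, was at least 2-fold lower, against 1.17% of genes, and none was higher, against 1.18%. Adm included, 46 of 5995 genes were as far below their 6 h level at 18 h. Edn1 did not reach the threshold, with log2 differences of -0.53 from 6 h to 18 h and -0.57 from 18 h to 90 h. From 18 h to 90 h 0 of 4 members passed 2-fold, where 0.904% of genes were higher and 0.954% lower.

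Among all genes, Adm stood near the top of the 6 h differences and Edn1 further down. Counting Adm at its bound, 24 of 6044 genes were as high or higher relative to unexposed at 6 h, itself included. For Edn1 the count was 112 genes, or 1.85%. At 18 h 5.45% of genes stood at or above the bound of Adm and 8.41% at or above Edn1. At 90 h 18.0% and 58.0% did. The share for Adm rests on its bound, which the floor sets, so it does not place Adm among the genes at 18 or 90 h. Ednrb and Ace had 17.9% and 16.3% of genes at or above them at 6 h.

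**Figure D2:**
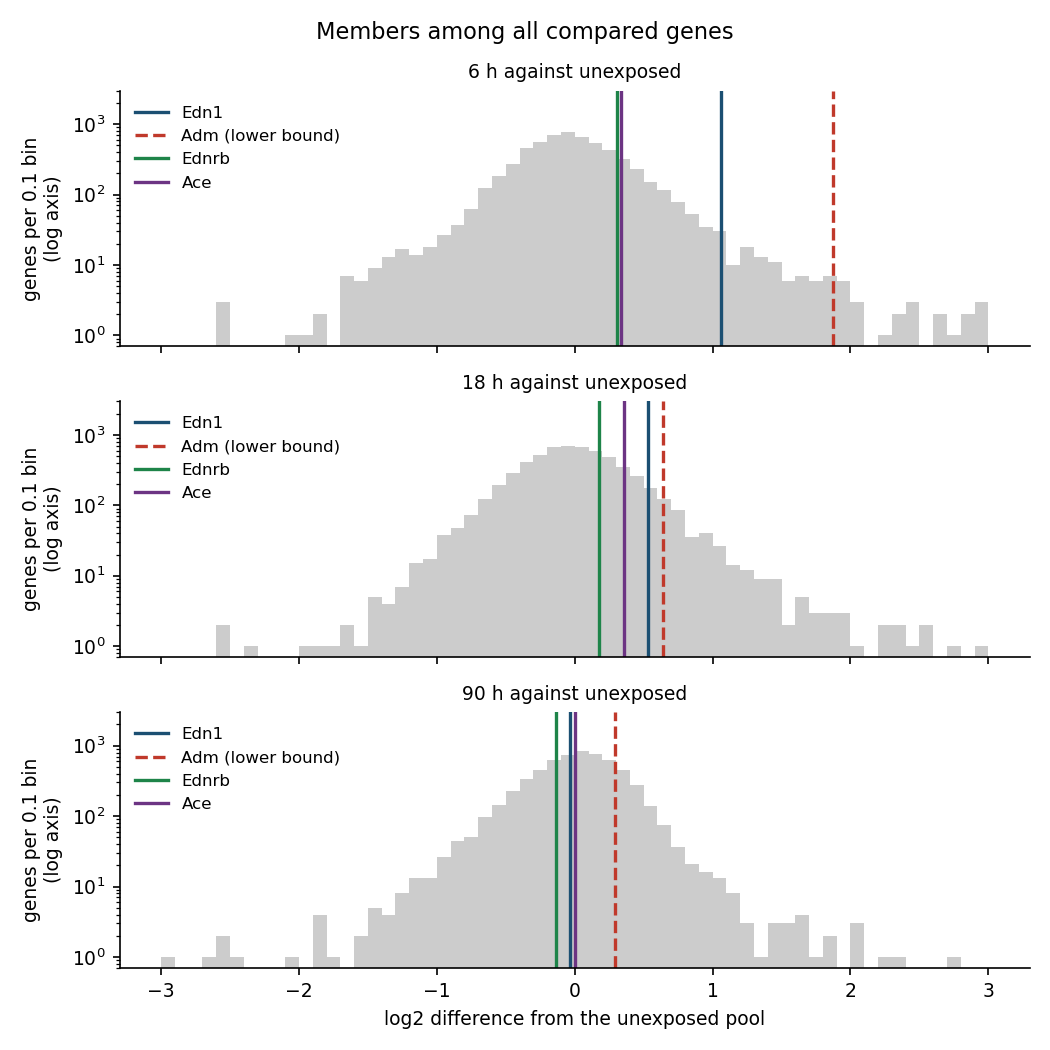
Number of genes (log axis) in bins of 0.1 of the log2 difference from the unexposed pool at 6, 18 and 90 h, with vertical lines for the members; a dashed line is a lower bound, and genes beyond 3 in either direction are drawn in the last bin. Edn1 at 1.06 and Adm at no less than 1.87 lie in the upper tail at 6 h. At 90 h Edn1, Ednrb and Ace lie between -0.14 and 0.00, and Adm has only its lower bound of 0.29.

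Edn1 was the only member that spanned at least 1 log2 unit and lay above the floor in all pools, so genes with a like profile were sought for it alone. Over the 4 pools, with each profile centred on its own mean, the closest of 5082 genes were Eif3j1, a translation initiation factor subunit (root mean square difference 0.03), Dnajb9, a chaperone partner of the endoplasmic reticulum (0.04), and Atp2a1, a calcium pump of skeletal muscle (0.06). Dnajb9 read 201, 410, 308 and 200.1 units. With 4 points such likeness is common: 191 genes, 3.76%, lay within 0.25 of Edn1.

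Of 9 listed genes of the endothelin pathway, Edn1 and Ednrb included, 6 were on the array and 4 were above the floor in some pool. These 4 were Edn1, Ednrb, the processing enzyme gene Ece1 and the degrading enzyme gene Mme, so their medians in part restate the members. The median log2 differences from unexposed were 0.57, 0.35 and -0.08 at 6, 18 and 90 h, beside -0.04, -0.01 and 0.03 over all genes. The other endothelin ligand genes Edn2 and Edn3 were at the floor in all pools, at no more than 30.8 and 51.1 units. Ece1, the enzyme that cuts the endothelin precursor to its active form, read 501, 594, 438 and 443 units, with differences of 0.25, -0.19 and -0.18. Mme, the neprilysin that degrades endothelin and other peptides, read 65.0, 138, 117 and 166 units. It was at least 1.78-fold, 1.51-fold and 2.14-fold above unexposed at 6, 18 and 90 h, with its highest pool at 90 h. Raising the floor to the 60th percentile left Mme with a 90 h bound of 0.27 on the log2 scale. The list's median at 6 h was 0.25 with that floor.

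Receptor genes of adrenomedullin lay on both sides of unexposed at 6 h. Of 10 listed genes of the adrenomedullin and CGRP pathway, Adm included, 7 were on the array and 6 were above the floor in some pool. At 6 h 2 of the 6 compared, Adm and Ackr3, were at least 2-fold higher, against 2.17% of all genes, and none was lower, against 1.51%. The median was 0.43, and over the genes above the floor on both arrays, which leaves out Adm, Ackr3 and Ramp3, it was -0.11. At 18 and 90 h none passed 2-fold, with medians of -0.08 and -0.05. Ackr3, an atypical receptor that scavenges adrenomedullin and the chemokine CXCL12, read 49.2, 165, 82.0 and 77.4 units and was at least 2.13-fold above unexposed at 6 h. That bound was 0.26 on the log2 scale with the floor at the 60th percentile. Calcrl and the 3 Ramp genes, which together form the receptors of adrenomedullin and CGRP, are named here after their values were seen. Calcrl, the receptor itself, read 699, 393, 662 and 530 units, 1.78-fold below unexposed at 6 h, the pool in which Adm was highest. Ramp2, its partner in the membrane, read 1275, 1186, 1164 and 877 units, with differences of -0.11, -0.13 and -0.54. Ramp3, the other partner that gives an adrenomedullin receptor, was above the floor only at 6 h, at 118 units against 66.7 unexposed, at least 1.52-fold higher. Ramp1, whose pairing with Calcrl gives the CGRP receptor, read 136, 164, 78.0 and 234 units. It was 1.75-fold below unexposed at 18 h and 1.72-fold above it at 90 h.

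The renin-angiotensin and kinin genes around Ace showed no member past 2-fold. Of all genes 2.17%, 1.59% and 0.726% were at least 2-fold higher at 6, 18 and 90 h, and 1.51%, 0.944% and 0.924% lower. A count of 0 in a short list, here or in the other lists, is thus near the share over all genes. Of 22 listed genes of this system, 14 were on the array and 11 were compared at each time, with medians of 0.01, -0.16 and 0.03. The furthest from unexposed was Cma1, a mast cell chymase that can also form angiotensin II, at 505, 256, 475 and 631 units. It was 1.97-fold lower at 6 h, with log2 differences of -0.98, -0.09 and 0.32 at 6, 18 and 90 h. Another of its probe sets, which may cross-hybridise by its suffix, gave -0.29, -0.53 and -0.57. The 2 thus differed in sign at 90 h. Kng1, the kininogen from which bradykinin is released, read 128 units in the unexposed pool and lay under the floor in the others, at least 1.65-fold lower at each time. Agt, the angiotensin precursor gene, lay close to the floor in every pool, between 79.6 and 89.8 units.

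Natriuretic peptides dilate vessels through cyclic GMP. Of their genes 1 of 6, the receptor gene Npr1, was past 2-fold at 6 h, and none was at 18 or 90 h. Of all genes 2.17% were at least 2-fold higher at 6 h and 1.51% lower. At 18 h these shares were 1.59% and 0.944%, and at 90 h 0.726% and 0.924%. Of 8 listed genes, 7 were on the array and 6 were compared, and the medians were 0.27, -0.41 and -0.38. Npr1, the receptor that makes cyclic GMP, read 94.7, 225, 85.9 and 68.8 units and was 2.38-fold above unexposed at 6 h. With the floor at the 60th percentile its difference was 0.71. The list's median at 6 h became 0.61 with that floor. Npr3, the receptor that clears these peptides, is named after its values were seen. At 6 h its log2 difference was 0.74 by its brightest probe set, which may cross-hybridise by its suffix, and 1.37 by another. The peptide genes Nppa, Nppb and Nppc had differences of -0.43, -0.07 and -0.32 at that time.

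Of nitric oxide and cyclic GMP genes none passed 2-fold with the floor used. The list had 15 genes, 10 on the array, with 8, 7 and 6 compared at 6, 18 and 90 h and medians of -0.07, -0.22 and -0.14. Nos1, the neuronal nitric oxide synthase, had log2 differences of -0.62, -0.55 and -0.67, and Gucy1b1, a subunit of the receptor for nitric oxide, -0.21, -0.52 and -0.09. Arg2, an arginase that competes with these synthases for arginine, was above the floor only at 6 h, at 107 units against 21.9 unexposed, so its 1.37-fold is a lower limit. The endothelial synthase gene Nos3 read 261, 252, 221 and 227 units.

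Of prostanoid genes 14 of 15 were on the array and 6, 8 and 7 were compared, with medians of -0.04, 0.06 and -0.05 and none past 2-fold. Ptges, a prostaglandin E synthase, was above the floor only at 18 h, at 149 units and at least 1.92-fold above unexposed. Tbxa2r, the receptor of the constrictor thromboxane, was under the floor only at 90 h, at least 1.89-fold lower. Of 17 other vasoactive peptides and receptors 15 were on the array and 7, 7 and 6 were compared, with medians of -0.19, -0.29 and -0.30 and none past 2-fold. The largest differences there were those of Vipr1, a receptor of the dilator VIP, at -0.64 at 18 h, and of Avp, vasopressin, at -0.52 at 18 h.

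**Figure D3:**
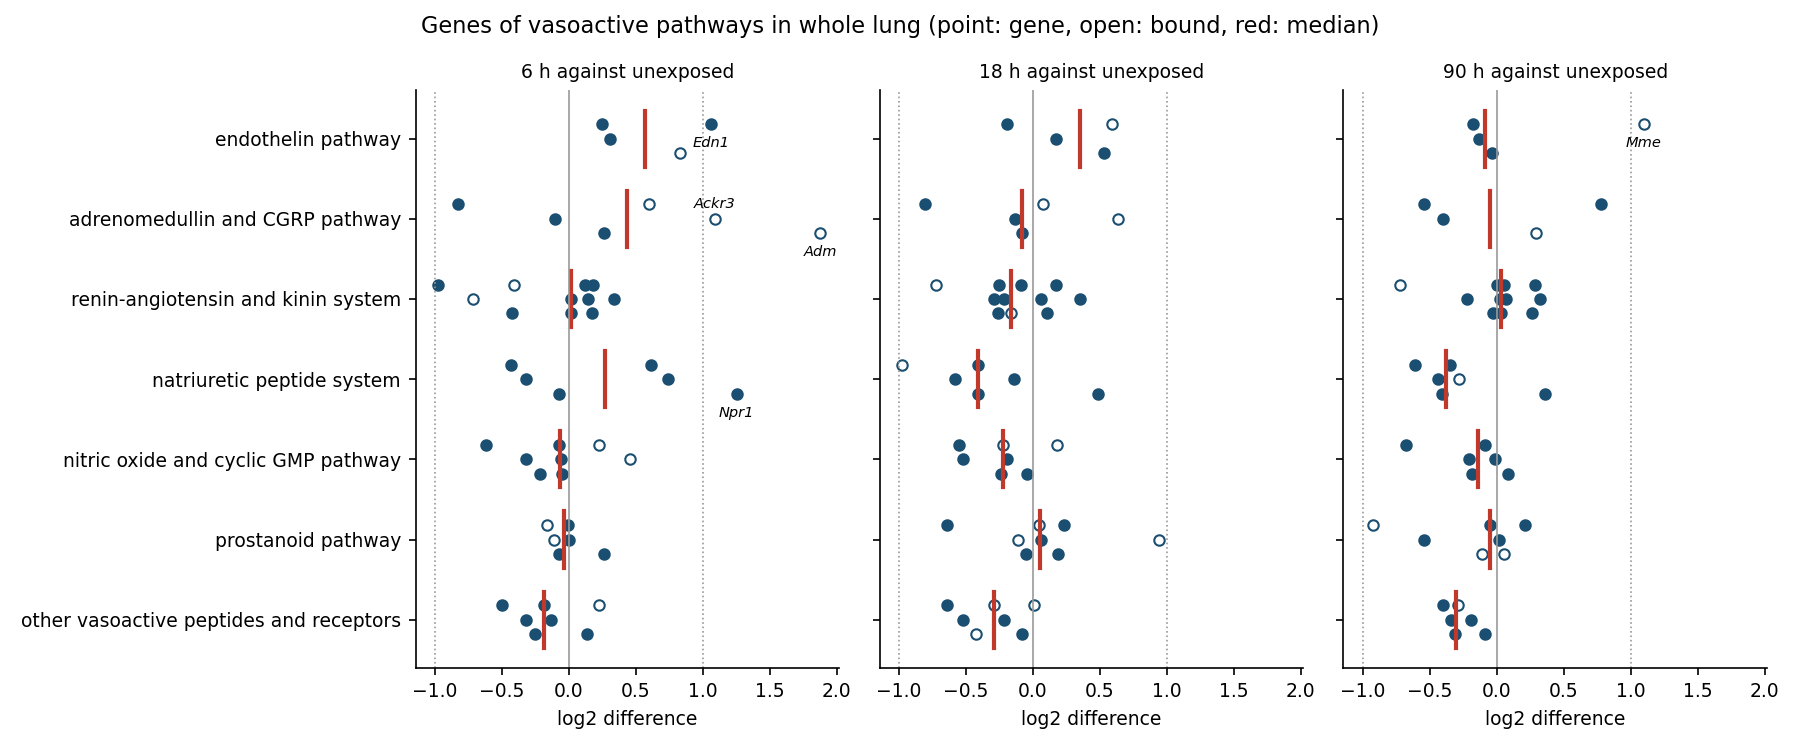
Log2 difference from the unexposed pool at 6, 18 and 90 h (x axis) of the compared genes of 7 vasoactive pathway lists, 1 point per gene, open where the value is a bound, with the list's median as a red bar; dotted lines mark 2-fold and names are given past it. At 6 h Edn1, Adm, Ackr3 and Npr1 lie past 2-fold, at 18 h no gene does, and at 90 h Mme does.

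Markers of endothelium and smooth muscle, which make or receive these peptides, were read beside the members, and their part in the member values was not tested. In bulk lung RNA fewer cells of a type and less RNA per cell cannot be told apart. All 13 endothelial markers on the array were above the floor in every pool, with medians of -0.07, -0.12 and -0.10 and summed levels of 10567, 9955, 9632 and 9725 units. Kdr, the main receptor for vascular endothelial growth factor, was the exception, at 327, 133, 319 and 411 units and 2.45-fold below unexposed at 6 h. Of the other endothelial markers none passed 2-fold at any time. Smooth muscle and pericyte markers had medians of -0.26, -0.04 and -0.46 in 10 genes, none past 2-fold. Their summed levels, which also include Rgs5, under the floor in all pools, were 5949, 5061, 5774 and 4692 units.

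Markers of the other cells of the lung moved as follows beside Edn1 and Adm. Fibroblast markers had medians of -0.25, -0.07 and 0.19 in 10 genes, alveolar type I markers -0.05, -0.13 and -0.21 in 4, and alveolar type II markers -0.09, 0.16 and 0.04 in 5. Club and ciliated cell markers had medians of -0.26, -0.35 and -0.16 in 5 genes, with Cckar 2.47-fold and 2.23-fold lower at 6 and 18 h, the latter -0.99 on the log2 scale with the pseudocount. Macrophage and monocyte markers, from cells that can also make endothelin and adrenomedullin, had medians of -0.02, -0.21 and 0.49. Their highest pool was 90 h, with summed levels over the 13 genes on the array of 4707, 3976, 4172 and 5942 units. Of these Lyz2, also listed as a type II marker, made up 2985, 2324, 2268 and 3078 units. At 90 h Ctsk was at least 3.10-fold, Chil3 2.16-fold and Mrc1 2.04-fold above unexposed. With the floor at the 60th percentile Ctsk and Mrc1 were under 2-fold, at 0.81 and 0.80 on the log2 scale. At 18 h Cd14, a receptor for bacterial lipopolysaccharide, was 2.13-fold higher. Neutrophil markers had medians of -0.19, -0.11 and 0.05, in 8, 7 and 7 genes. Only Ltf was past 2-fold, 2.93-fold lower at 6 h, and it was just under 2-fold with the floor at the 60th percentile. Cxcr2 read 27.5, 151, 29.4 and 44.0 units and was at least 1.94-fold higher at 6 h, and S100a8 and S100a9 were 1.83-fold and 1.77-fold higher at 90 h. These 3 are named after their values were seen.

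Hypoxia and glycolysis genes were listed because Adm is known to respond to hypoxia. Of 20 listed, 17 were on the array, and 16, 15 and 15 were compared, with medians of 0.12, 0.27 and -0.05. At 6 h 1 of 16 was at least 2-fold higher, against 2.17% of all genes. This was Hmox1, which degrades heme and also answers oxidative stress, at 5.62-fold. In all 10 of 16 were above unexposed at 6 h, 9 of 15 at 18 h and 7 of 15 at 90 h, counting genes known only by a bound. The medians over all genes were -0.04, -0.01 and 0.03 at these times. The part of hypoxia in the Adm values was not tested. Vegfa, a standard hypoxia target, read 604, 429, 533 and 472 units. The other listed genes below unexposed at 6 h were Pfkl, Pgam1, Tpi1, Pdk1 and Epo. Their log2 differences were -0.38, -0.23, -0.25, -0.28 and -0.12. Hif1a, which encodes a subunit of the hypoxia-inducible factor, read 334, 544, 494 and 437 units, 1.63-fold above unexposed at 6 h. The suffix of its probe set marks a family of similar sequences. The glycolysis genes Ldha and Pgk1 were highest at 18 h, 1.76-fold and 1.70-fold above unexposed. Slc2a1, a glucose transporter, read 64.1, 130, 99.5 and 78.7 units. Its unexposed value lay under the floor, so at 6 h it was at least 1.68-fold above unexposed. Hk2, a hexokinase, was 1.82-fold above unexposed at 6 h. The 6 reference genes compared had medians of -0.05, 0.01 and 0.04, within -0.71 and 0.44 over the 3 times.

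**Figure D4:**
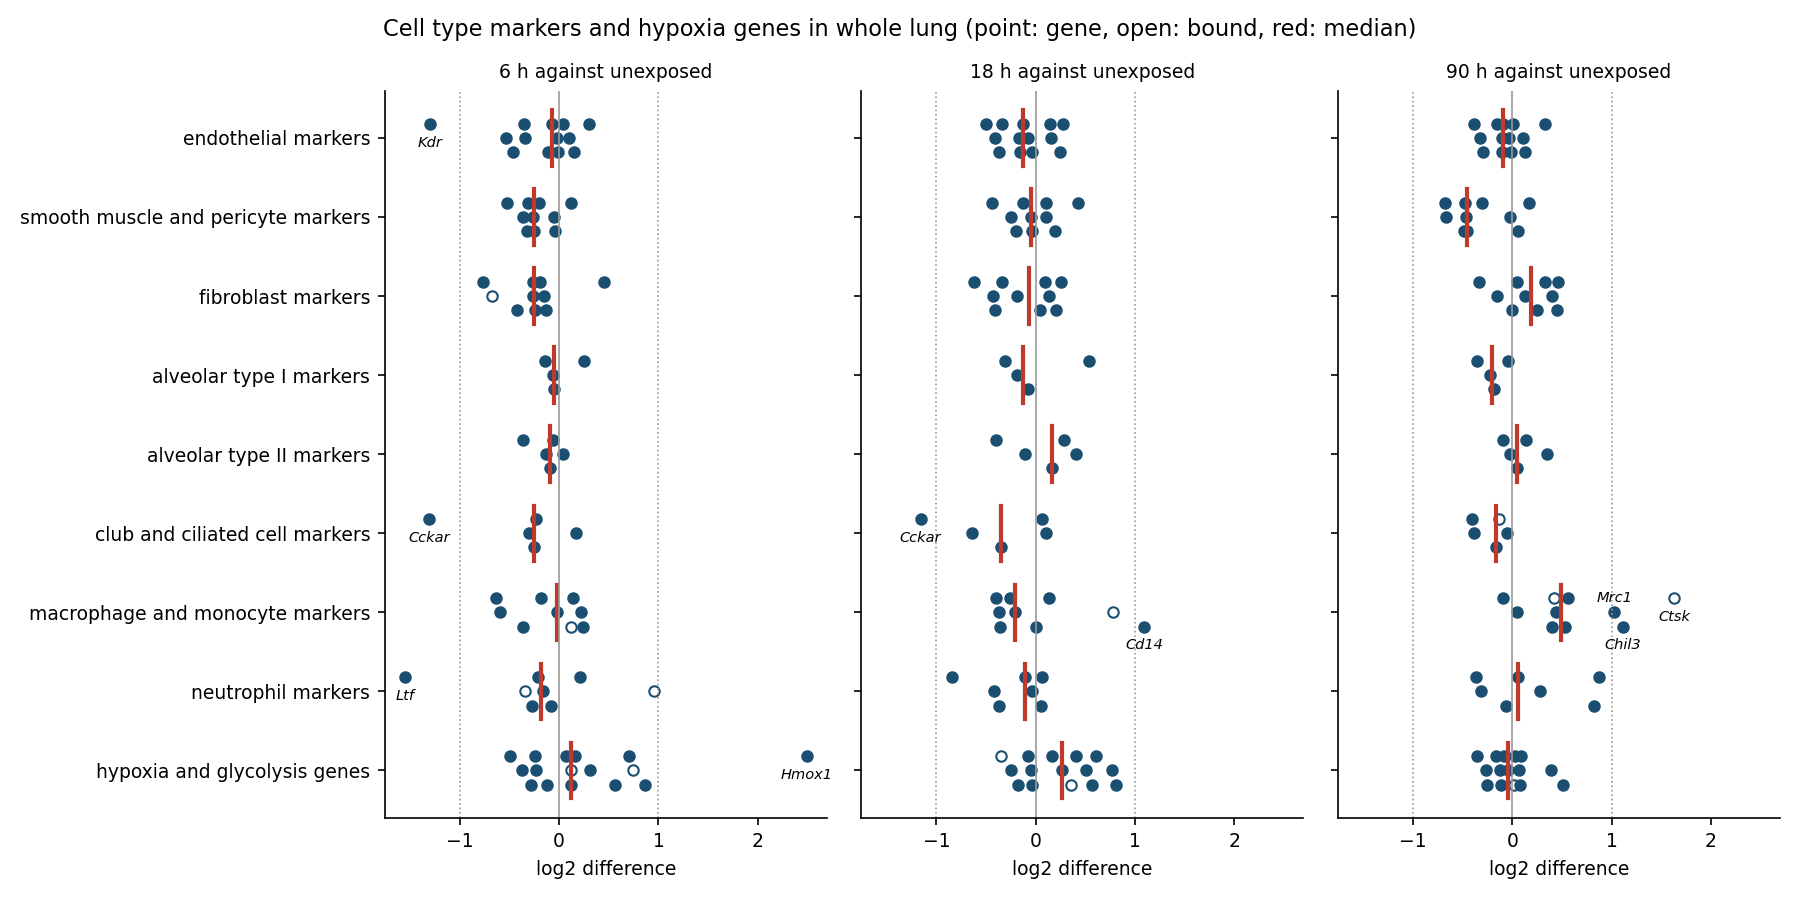
Log2 difference from the unexposed pool at 6, 18 and 90 h (x axis) of cell type markers and of hypoxia and glycolysis genes, 1 point per gene, open where the value is a bound, with the list's median as a red bar; dotted lines mark 2-fold and names are given past it. The endothelial median stays between -0.12 and -0.07 at the 3 times while Kdr alone of that list passes 2-fold, and the macrophage median is 0.49 at 90 h.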

How the data were processed

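Total RNA of pooled whole lungs was read on 4 oligonucleotide arrays, 1 per group. The intensities deposited by the authors are linear, 1 value for each probe set on each array, with exact zeros and none below 0. No label or header says with which software, background correction or scaling they were made. Probe sets took their names from the annotation of the platform (0 symbols changed on updating by gene identifier), and 396 with several symbols and 1193 not listed were left out of gene counts. With Python 3.11.15 each array was scaled to a common mean after trimming 2% at each end, values under the 40th percentile were set to it, and log2 was taken. There was no test, since no group had a replicate. Alternative scalings used limma 3.58.1. The code was tested on simulated data. The members and gene lists were chosen with earlier results of these data known. Every member probe set was named, as was each pathway gene past 2-fold, or else the 2 furthest from unexposed. From marker lists mainly genes past 2-fold are printed. Other genes are said to be chosen after their values were seen or are named for their role, except in the hypoxia and glycolysis list. There Hk2, Ldha and Pgk1 were among the 2 genes furthest from unexposed at 6 or 18 h.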

Additional observations from a re-analysis of the deposited data

How the results depend on the processing

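The count of members at least 2-fold from unexposed at 6 h was 2, and it became 1 with a pseudocount in place of the floor and 1 at a threshold of 3-fold, Adm being the one left. At 18 h the count of 0 became 1 (Adm) with the floor at the 25th percentile, with the pseudocount and at a threshold of 1.5-fold, and at 90 h it became 1 (Adm) with the floor at the 25th percentile. From 6 h to 18 h the count of 1 became 0 at 3-fold. Other scalings, averaged probe sets and leaving out probe sets marked for cross-hybridisation left these counts as they were. Of 172 recomputed member values 10 moved by more than the disagreement between probe sets, those of Adm against unexposed with the floor or pseudocount and of Ace with its probe sets averaged, and 0 values past 2-fold changed sign. At 90 h differences of Edn1, Ednrb and Ace near 0 did change sign, that of Edn1 reaching 0.14 with its probe sets averaged. Of 561 recomputed list medians 6 moved as far. Unscaled intensities moved the median of all genes from -0.04 to 0.07 at 6 h, from -0.01 to 0.12 at 18 h and from 0.03 to 0.16 at 90 h. With the floor at the 60th percentile, comparisons in which Ednrb or Adm lay under it on both arrays gave no value. No paired analysis was possible because each group has 1 array. How dim Adm and Ednrb were limits what their probe sets show, since both lie near or under the floor in unexposed lungs.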
